A study of Mus musculus with 14 samples.

Results

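Cytochromes P450 are heme enzymes that add oxygen to drugs, toxins, steroids and fatty acids, and families 1 to 4 hold most of those that handle foreign compounds and fatty acids. This account follows the mouse genes of those families through livers that did or did not carry a hepatocyte deletion of Rbbp5 and that were or were not given the endoplasmic reticulum stress agent tunicamycin. The members were every gene symbol in the deposited count tables made of Cyp, a digit from 1 to 4 and a letter. Of 86 such names, 16 Cyp2c genes, Cyp4a10, Cyp4a14 and 2 pseudogene names ending in -ps were left out, which left 66 members among 24411 genes. RefSeq lists 63 of them as protein coding, Cyp2d13 and Cyp4b1-ps2 as transcribed pseudogenes, and Cyp4x1os as a long noncoding RNA.

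P450 proteins of these families sit in the membrane of the endoplasmic reticulum and receive electrons from the reductase Por and from cytochrome b5. In hepatocytes their genes are controlled by ligand-sensing receptors, among them the aryl hydrocarbon receptor Ahr, CAR (Nr1i3), PXR (Nr1i2) and Ppara, on top of liver factors such as Hnf4a. Many are zoned along the liver lobule or differ between the sexes in mice, and inflammation and endoplasmic reticulum stress are known to lower several of them. Tunicamycin blocks N-linked glycosylation, so that unfolded glycoproteins accumulate in the endoplasmic reticulum.

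The mice were male littermates of 5 to 7 months, all with loxP sites in both Rbbp5 alleles (flox/flox). Those without the Alb-Cre transgene are called WT here, and those with it LKO, which the sample labels spell RRBP5 LKO and the series text RBBP5 LKO. Rbbp5 encodes a shared subunit of histone H3K4 methyltransferase complexes, and the albumin promoter drives Cre in hepatocytes. Which cells of the LKO livers kept the gene cannot be told from whole liver. Each mouse was injected into the peritoneum between 9 and 10 in the morning with 0.05 mg/kg tunicamycin or with the vehicle alone, 500 µl of PBS with 3% DMSO, and whole liver was taken 8 h later. Total RNA of the liver was sequenced from 14 libraries, of which 3 were WT and 4 LKO with vehicle, and 3 were WT and 4 LKO with tunicamycin. In bulk liver, fewer cells of a type and less RNA per cell cannot be told apart.

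Libraries held 6507018 to 13519421 reads on genes, of which 72.5% to 75.5% lay on the ribosomal RNA precursor Rn45s, so 1704479 to 3551398 reads per library were left for all other genes. LKO vehicle 3 and 4 differed by little more than counting noise (chi-square per degree of freedom 1.12, against 3.38 to 25.9 for the 17 other pairs within groups). They were summed, which gave 13 samples. Levels are given as reads per 1000000 reads on genes (CPM), Rn45s included, after TMM scaling. Rbbp5 itself was at 4.07, 6.40 and 5.10 CPM in WT vehicle, at 5.36, 5.02 and 5.70 in WT tunicamycin, at 4.14, 1.90 and 2.78 in LKO vehicle, and at 2.79, 3.12, 3.46 and 2.06 in LKO tunicamycin. LKO vehicle 1 thus lay inside the WT vehicle range. Rbbp5 was not called at an edgeR adjusted p under 0.05 in LKO against WT. Its log2 fold change was -0.87 ± 0.26 with vehicle (SE; edgeR adjusted p = 0.329) and -0.90 ± 0.25 after tunicamycin (SE; edgeR adjusted p = 0.105). WT tunicamycin 3 stood apart from the other libraries of its group, and results that rest on it are given with and without it.

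Cyp2a5 and Cyp2a4, members of one gene cluster with others between them, show how close some of these genes are in sequence while their levels differ. Cyp2a5 encodes a coumarin and nicotine hydroxylase and lies at chr7:26835305-26843548, and Cyp2a4, a steroid 15-alpha-hydroxylase known for higher levels in females, lies at chr7:26307169-26315088 (both GRCm38, GENCODE M21). The stretches from 250 to 51 bases before their RefSeq starts, which lie at positions 26835339 and 26307192 (chr7:26835089-26835288 and chr7:26306942-26307141, plus strand, GRCm38.p6), are shown because the upstream DNA of both genes is almost the same. Capitals mark the bases that differ and, at one end of each, the base left over by an offset of the windows.
Cyp2a5: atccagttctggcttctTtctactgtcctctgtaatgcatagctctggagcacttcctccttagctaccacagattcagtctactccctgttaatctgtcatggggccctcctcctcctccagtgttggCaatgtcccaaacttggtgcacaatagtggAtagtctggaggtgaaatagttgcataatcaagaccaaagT
Cyp2a4: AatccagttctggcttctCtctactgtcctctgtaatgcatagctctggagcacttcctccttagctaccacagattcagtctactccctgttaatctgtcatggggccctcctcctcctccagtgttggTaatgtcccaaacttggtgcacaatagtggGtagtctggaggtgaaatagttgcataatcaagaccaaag
Over 199 aligned bases, 196 were identical (98.5%). Cyp2a5 had 15667 reads over the 13 samples and Cyp2a4 had 61. The authors' FPKM values put the genes closer together, with means of 39.6 and 2.64. The FPKM of Cyp2a4 rose and fell with that of Cyp2a5. In WT tunicamycin it was 0.770, 0.636 and 4.08, beside 14.3, 12.5 and 57.8 for Cyp2a5. Why they moved together was not tested. The transcripts of Cyp2a5 and Cyp2a4 are also alike, and 85.6% of the 100-base windows of the Cyp2a5 transcript were found in no other gene, so a share of the reads of either gene cannot be placed.

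Expression of the families was concentrated in few genes. Cyp2e1, an enzyme of ethanol and acetaminophen oxidation, and Cyp3a11, the main mouse counterpart of human CYP3A4, together held 56.8% of all member reads. Per transcript length, Cyp2e1 had the highest mean level, 274.5 FPKM (fragments per kilobase and 1000000 fragments, the authors' values), and ran from 119 to 402 over the samples. Cyp3a11 followed with a mean of 199 FPKM and a range of 38.4 to 319. The order of this pair was not fixed, since Cyp2e1 was above Cyp3a11 in 9 of 13 samples. Cyp2f2, a lung and liver enzyme that activates naphthalene, was next with a mean of 60.9 FPKM, below both in all 13 samples. It was above Cyp2a5, mean 39.6 FPKM, in 12 of 13.

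Below these lay 8 further genes with a mean of at least 10 FPKM, which makes 12 in all. Cyp2a12, a steroid hydroxylase, had a mean of 37.1 FPKM, Cyp2d9, known for higher levels in male mice, 34.3 FPKM, and Cyp2d26 had 30.4 FPKM. Cyp1a2, which oxidizes caffeine and aromatic amines, had 28.0 FPKM, and Cyp3a25 and Cyp2d10 had 21.5 and 21.2 FPKM. The ranges of neighbours in this stretch overlapped, so their order is no more than the order of means. Cyp2j5, an epoxygenase of arachidonic acid, had 17.2 FPKM, and Cyp4v3, a fatty acid omega-hydroxylase whose human counterpart is mutated in Bietti crystalline dystrophy, had 14.6 FPKM.

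At the other end, 15 members had no read in any sample and 21 had too few to test. The untested member with most reads, Cyp4f17, had 110 over the 13 samples, and the tested member with fewest, Cyp2b10, had 136. The 36 untested members together held 0.126% of the member reads. Cyp1a1, the classic target of the aryl hydrocarbon receptor, was among them with 29 reads over all samples and 5 at most in one. Cyp1b1 of the same receptor's targets had 60 reads. None of the 7 members listed as known for higher levels in females (Cyp2a4, Cyp2b9, Cyp2b13, Cyp3a16, Cyp3a41a, Cyp3a41b and Cyp3a44) had enough reads to test. Their summed level by read counts was between 0.520 and 3.19 CPM in every sample. Of the windows of the Cyp3a41a and Cyp3a41b transcripts, only 9.18% and 11.8% were found in no other gene. The counts of Cyp3a41a, and the absence of reads for Cyp3a41b, thus do not show how far these genes were expressed. Mean FPKM was 2.64 for Cyp2a4, 1.57 for Cyp3a44, 1.19 for Cyp3a41a and 0.304 for Cyp3a41b. It was 0.249 for Cyp3a16, 0.101 for Cyp2b9 and 0.00801 for Cyp2b13.

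**Figure D1:**
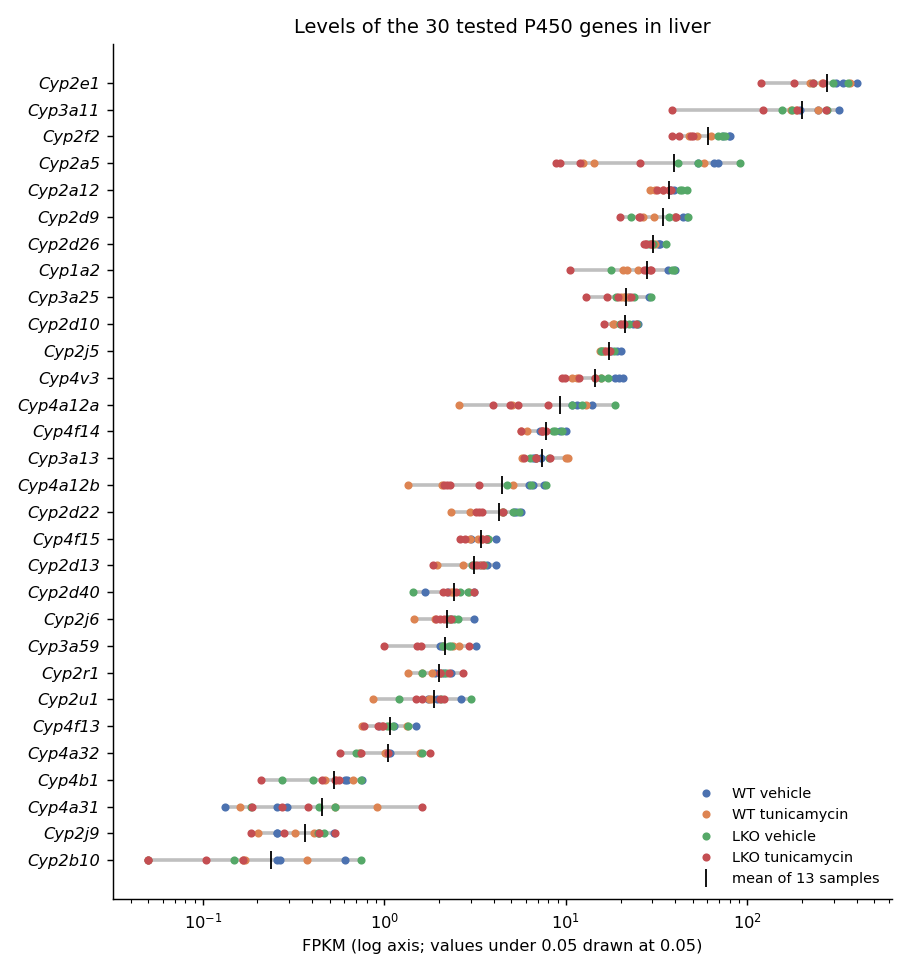
FPKM of the 30 tested P450 genes on a log axis, 1 row per gene ordered by mean. Dots are the 13 samples coloured by group, the grey line spans the lowest to the highest sample, and the black tick is the mean. Cyp2e1 (mean 274.5) and Cyp3a11 (mean 199) lie above all others, and Cyp2b10 (mean 0.237) is lowest.

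Some members were steady between mice of a group and others were not. The SD of log2 CPM within groups was 0.079 for Cyp2d26 and 0.095 for Cyp2j5. It was 0.73 for Cyp3a11, 0.75 for Cyp2a5, 1.06 for Cyp4a31 and 1.14 for Cyp2b10. The median over the 30 tested members was 0.27, beside 0.26 over all 9644 genes tested. Cyp3a11 shows the spread at a high level, with 669, 216, 928 and 1381 CPM in the 4 LKO tunicamycin samples.

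The summed level of all 66 members was 5038, 5347 and 4643 CPM in WT vehicle and 3613, 4361 and 4905 in WT tunicamycin. In LKO it was 3545, 3922 and 5041 CPM with vehicle and 2917, 2624, 2651 and 4048 with tunicamycin. The groups overlapped in each genotype, through WT tunicamycin 3 in WT and through LKO tunicamycin 4 in LKO. Since the sum is mostly Cyp2e1 and Cyp3a11, it was also taken without them. It then was 2040, 2172 and 2091 CPM in WT vehicle, 1449, 1656 and 2016 in WT tunicamycin, 1765, 1823 and 2094 in LKO vehicle, and 1447, 1360, 1232 and 1579 in LKO tunicamycin. On that sum the vehicle and tunicamycin samples did not overlap in either genotype. No test was made on these sums.

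The first comparison asks what tunicamycin did to the P450 genes of WT liver. No member passed the threshold, a Benjamini-Hochberg adjusted p under 0.05 from edgeR with all 9644 genes, which 0.363% of all genes passed. At an unadjusted p under 0.05, 5 members were lower and 1 higher of 30, against 6.86% and 7.92% of all genes. DESeq2 called 3 members lower (Cyp2d22, Cyp4a12b and Cyp4v3). It gave an adjusted p to 4907 genes, 26 members among them, and called 3.12% of these genes. With total count scaling edgeR called the same 3 (1.53% of all genes), and with no filter on low counts Cyp2d22 and Cyp4a12b (1.78%). The tunicamycin samples lay wholly below the vehicle samples for 6 of 30 members, against 8.68% of all genes, and wholly above for 0, against 8.62%. The 6 were Cyp2d13, Cyp2d22, Cyp2f2, Cyp2r1, Cyp4a12b and Cyp4v3. The log2 fold change was below 0 for 24 of 30 members (48.3% of all genes), with a median of -0.18 beside 0.014 for all genes. With total count scaling, 27 of 30 were below 0, and the median of all genes itself moved to -0.18.

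Cyp4a12b, a male-biased fatty acid omega-hydroxylase at chr4:115411624-115439034, had the smallest p. It was at 22.0, 18.8 and 19.4 CPM in WT vehicle and at 4.67, 4.86 and 15.9 in WT tunicamycin. The groups did not overlap, but WT tunicamycin 3 lay close to the vehicle samples and far above its own group. On the log2 scale the difference was -1.25 ± 0.34 (SE, n = 3 and 3, adjusted p = 0.111 in edgeR). Its near copy Cyp4a12a, at chr4:115299046-115332815, was at 57.5, 47.9 and 44.1 CPM with vehicle and at 21.2, 13.6 and 65.96 with tunicamycin, so the groups overlapped through WT tunicamycin 3 alone. Only 63.8% and 64.2% of the 100-base windows of the Cyp4a12b and Cyp4a12a transcripts are found in no other gene, and their values are uncertain to that extent.

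Cyp2d22, at chr15:82370527-82380260, is often called the mouse counterpart of human CYP2D6. It was at 33.6, 36.5 and 32.8 CPM in WT vehicle and at 16.5, 22.0 and 29.4 in WT tunicamycin, a difference of -0.60 ± 0.17 on the log2 scale (SE, n = 3 and 3, adjusted p = 0.111 in edgeR). Cyp4v3, at chr8:45304944-45333216, was at 170, 196 and 169 CPM with vehicle and at 102, 111 and 152 with tunicamycin (log2 fold change -0.55 ± 0.16, SE; edgeR adjusted p = 0.129). In both genes all 3 tunicamycin samples were below all 3 vehicle samples, and WT tunicamycin 3 was the highest of them. Cyp3a13 went the other way in 2 of 3 mice. This intestine and liver member of the CYP3A family, at chr5:137892932-137921619, was at 65.4, 65.1 and 71.7 CPM with vehicle and at 94.9, 110 and 61.3 with tunicamycin, so that WT tunicamycin 3 lay below the vehicle range (log2 fold change 0.40 ± 0.18, SE; edgeR adjusted p = 0.318).

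WT tunicamycin 3 was the highest of its group for 18 of 30 tested members, and it lay inside the WT vehicle range for 12 of 30, against 5 and 8 for WT tunicamycin 1 and 2. Cyp2a5 showed the gap most plainly, with 161, 205 and 211 CPM in WT vehicle and 46.3, 47.1 and 202 in WT tunicamycin. When this library was left out, edgeR called 7 of 31 tested members, against 6.19% of all genes. Lower were Cyp4a12b (log2 fold change -2.07 ± 0.28, SE), Cyp2a5 (-2.05 ± 0.39), Cyp4a12a (-1.51 ± 0.27), Cyp2d22 (-0.84 ± 0.15), Cyp4v3 (-0.75 ± 0.15) and Cyp2f2 (-0.55 ± 0.15), and higher was Cyp3a13 (0.60 ± 0.15), with edgeR adjusted p between 0.000625 and 0.0389. Without either of the other samples of the group, and in 12 of 13 leave-one-out fits, edgeR called none.

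**Figure D2:**
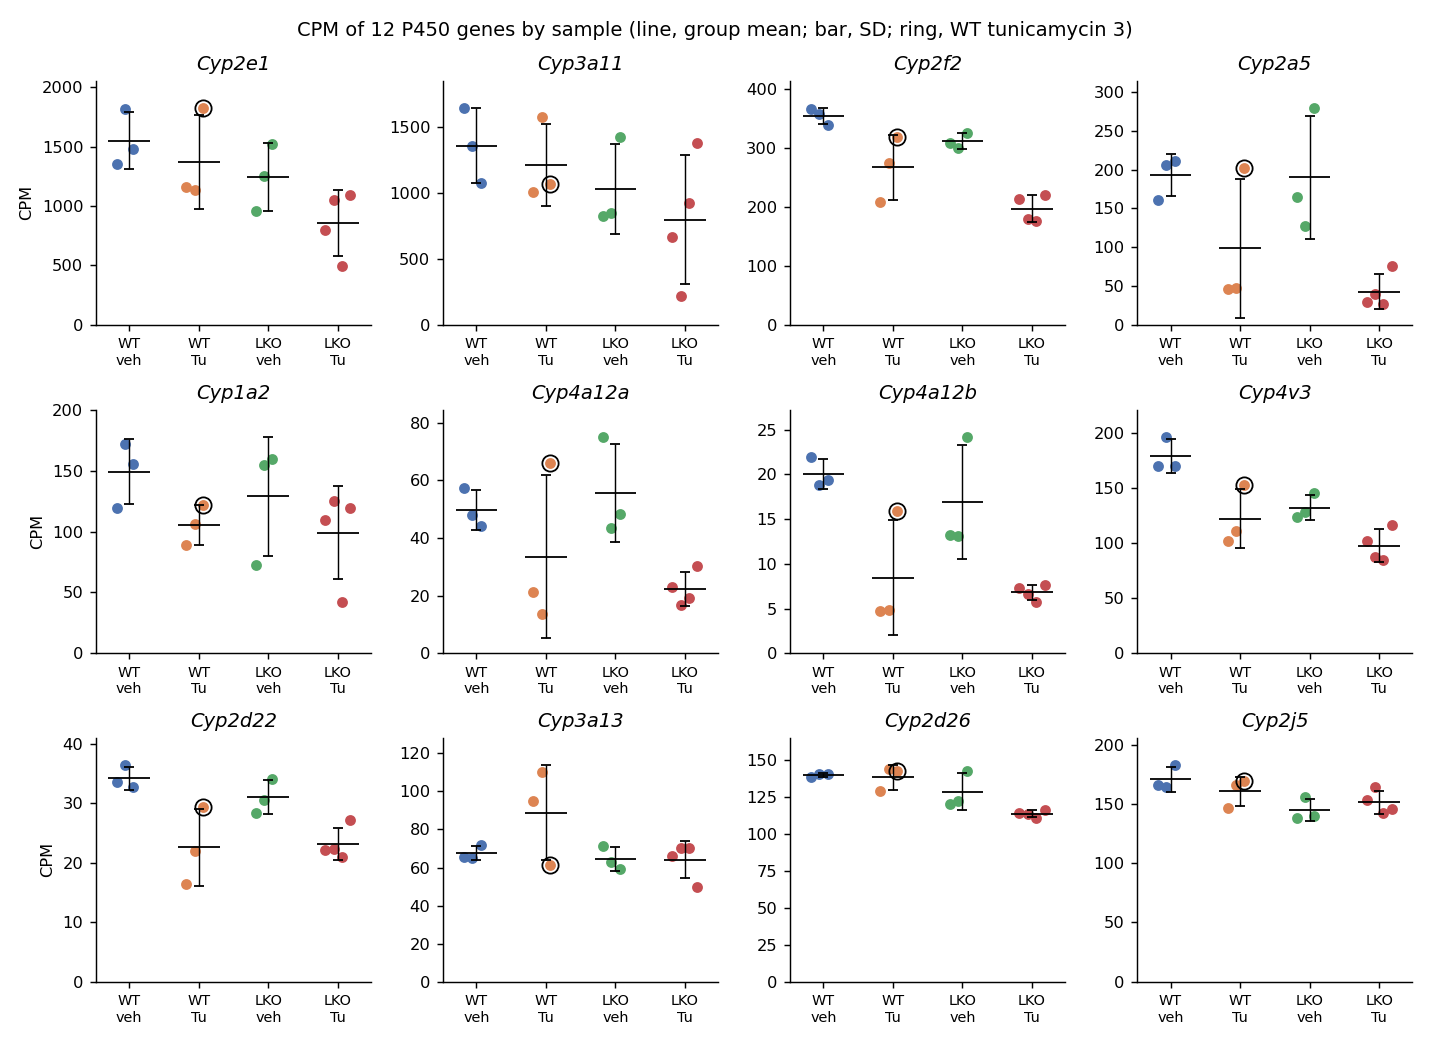
CPM of 12 P450 genes in each of the 13 samples, by group (WT and LKO with vehicle, veh, or tunicamycin, Tu), with the group mean as a line and the SD as a bar on axes that start at 0. The ringed point is WT tunicamycin 3, which for Cyp2a5 lies at 202 CPM while the other samples of its group are at 46.3 and 47.1; Cyp2d26 and Cyp2j5 vary little.

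The second comparison asks the same of LKO liver, with no library in common with the first. Again no member passed an adjusted p under 0.05 in edgeR, which 0.0311% of all genes did. At an unadjusted p under 0.05, 8 of 30 members were lower and 0 higher, against 6.33% and 5.83% of all genes. DESeq2 gave an adjusted p to only 811 genes here, 14 members among them. It called 5.67% of these 811 genes, among them the members Cyp2a5 and Cyp2f2. With no filter on low counts edgeR called 4 members lower, Cyp2a5, Cyp2f2, Cyp4a12a and Cyp4a12b (0.941% of all genes). It called the same 4 (0.674%) when WT tunicamycin 3, a library outside this comparison that enters the shared estimate of the spread, was left out. The 4 tunicamycin samples lay wholly below the 3 vehicle samples for 10 of 30 members, against 6.55% of all genes, and wholly above for 0, against 5.03%. These 10 were Cyp2a5, Cyp2a12, Cyp2d22, Cyp2d26, Cyp2f2, Cyp4a12a, Cyp4a12b, Cyp4f14, Cyp4f15 and Cyp4v3. For Cyp4f14 the gap was 37.17 against 37.16 CPM. Of the 10, Cyp2d22, Cyp2f2, Cyp4a12b and Cyp4v3 were also wholly lower in WT, which is 66.7% of the WT list and 40.0% of the LKO list. The share of all genes wholly lower in both genotypes was not counted, so this overlap has nothing to be judged against. Of 30 members, 24 had a log2 fold change below 0 (49.2% of all genes), with a median of -0.25 beside 0.0045 for all genes.

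Cyp2a5 had the smallest unadjusted p. It was at 164, 127 and 279 CPM in LKO vehicle and at 28.9, 39.4, 26.5 and 75.7 in LKO tunicamycin, means of 190 ± 79.3 (SD, n = 3) and 42.6 ± 22.8 (SD, n = 4). The groups did not overlap, and the highest treated sample was LKO tunicamycin 4. This is a log2 fold change of -2.16 ± 0.45 (SE), with an adjusted p of 0.175 in edgeR. Adjusted p ran from 0.00664 to 0.45 over the leave-one-out fits and was smallest without WT tunicamycin 3.

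Cyp2f2, at chr7:27119909-27133660, was at 308, 300 and 326 CPM in LKO vehicle and at 213, 180, 176 and 219 in LKO tunicamycin. All treated samples were below all vehicle samples by a clear gap, and the log2 fold change was -0.66 ± 0.15 (SE; edgeR adjusted p = 0.175). In WT the same gene was at 365, 357 and 339 CPM with vehicle and at 209, 274 and 318 with tunicamycin, again without overlap (log2 fold change -0.41 ± 0.16, SE; edgeR adjusted p = 0.233).

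Of the 4 tested omega-hydroxylase genes of the Cyp4a subfamily, the near copies Cyp4a12a and Cyp4a12b were lower in LKO tunicamycin than in LKO vehicle, and the other two were not. Cyp4a12a was at 75.2, 43.6 and 48.5 CPM with vehicle and at 23.0, 16.6, 19.1 and 30.4 with tunicamycin, and its log2 fold change was -1.31 ± 0.36 (SE; edgeR adjusted p = 0.215). Cyp4a12b was at 13.3, 13.1 and 24.2 CPM with vehicle and at 7.32, 6.63, 5.70 and 7.59 with tunicamycin (log2 fold change -1.33 ± 0.31, SE; edgeR adjusted p = 0.175). Neither gene's groups overlapped. Cyp4a31 and Cyp4a32 had log2 fold changes of 1.10 ± 0.64 and 0.38 ± 0.28 (SE). Cyp4a31 spanned 0.976 to 8.14 CPM within LKO tunicamycin.

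Smaller differences were seen in Cyp4v3 and Cyp2d22. Cyp4v3 was at 123, 128 and 145 CPM in LKO vehicle and at 102, 87.4, 84.6 and 116 in LKO tunicamycin (log2 fold change -0.44 ± 0.15, SE; edgeR adjusted p = 0.287). Cyp2d22 was at 28.4, 30.6 and 34.1 CPM with vehicle and at 22.2, 22.4, 21.1 and 27.2 with tunicamycin (log2 fold change -0.42 ± 0.15, SE; edgeR adjusted p = 0.293). Both were without overlap. Cyp2b10, the classic target of CAR, was close to the limit of detection, with at most 3.26 CPM in any sample and 0 reads in LKO vehicle 1, and its log2 fold change of -1.98 ± 0.82 (SE, adjusted p = 0.348 in edgeR) rests on few reads.

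The 2 most abundant members and Cyp1a2 overlapped between the groups. Cyp2e1 was at 958, 1251 and 1522 CPM in LKO vehicle and at 801, 1048, 492 and 1089 in LKO tunicamycin, with overlap (log2 fold change -0.54 ± 0.26, SE; edgeR adjusted p = 0.418). Cyp3a11 was at 823, 849 and 1424 CPM with vehicle, and its 4 tunicamycin samples, from 216 to 1381 CPM, lay on both sides of them (log2 fold change -0.37 ± 0.40, SE; edgeR adjusted p = 0.773). Cyp1a2 was at 72.5, 155 and 160 CPM with vehicle and at 109, 125, 42.5 and 120 with tunicamycin, also with overlap. LKO tunicamycin 3 was the lowest sample of its group for both Cyp2e1 and Cyp1a2, and LKO tunicamycin 2 for Cyp3a11.

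**Figure D3:**
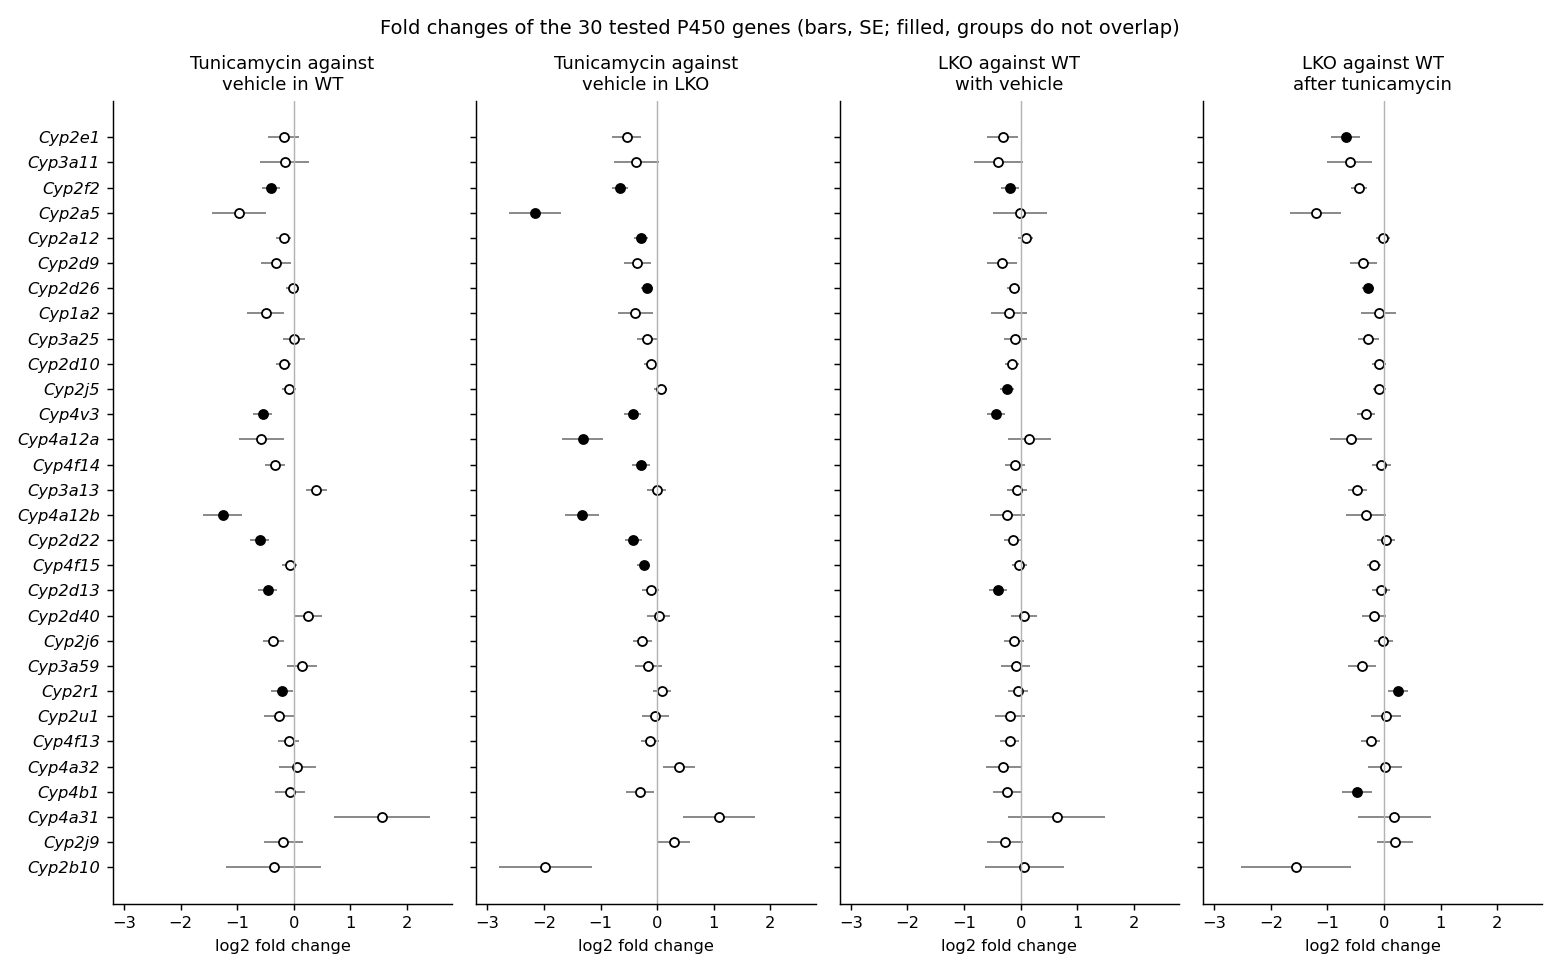
Log2 fold changes of the 30 tested P450 genes in the 4 comparisons, with the SE as a bar and genes ordered by mean FPKM. Filled points mark genes whose groups do not overlap; in LKO given tunicamycin these are 10 genes, all to the left of 0, led by Cyp2a5 at -2.16.

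The third comparison sets LKO against WT with vehicle. No member passed an adjusted p under 0.05 in edgeR, against 0.0415% of all genes. DESeq2 called no member and 0.138% of the 10893 genes it gave an adjusted p. At an unadjusted p under 0.05, 2 of 30 members were lower and 0 higher, against 3.47% and 4.71%. The LKO samples lay wholly below the WT samples for 4 of 30 members, Cyp2d13, Cyp2f2, Cyp2j5 and Cyp4v3, against 7.6% of all genes, and wholly above for 0, against 7.5%. Values lay below 0 on the log2 scale for 25 of 30 (49.1% of all genes), with a median of -0.15.

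Cyp4v3 had the smallest p, with 123, 128 and 145 CPM in LKO against 170, 196 and 169 in WT (log2 fold change -0.43 ± 0.16, SE; edgeR adjusted p = 0.4996). The transcribed pseudogene Cyp2d13, which RefSeq places at chr15:82636750-82642045, was at 17.3, 16.0 and 13.03 CPM in LKO and at 19.1, 19.96 and 21.4 in WT (log2 fold change -0.39 ± 0.16, SE; edgeR adjusted p = 0.542). Cyp2j5, at chr4:96628773-96664154, was at 138, 156 and 140 CPM in LKO and at 166, 164 and 183 in WT (log2 fold change -0.24 ± 0.12, SE; edgeR adjusted p = 0.628). Each is a gap between 3 and 3 mice that is small beside the group means. The mean of Cyp2a5 was the same to within its spread, 190 ± 79.3 CPM in LKO and 193 ± 27.3 in WT (SD, n = 3 each).

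The fourth comparison sets LKO against WT after tunicamycin and uses the treated samples of both earlier tunicamycin comparisons. No member passed an adjusted p under 0.05 in edgeR, against 0.861% of all genes. At an unadjusted p under 0.05, 5 of 30 members were lower (Cyp2a5, Cyp2d26, Cyp2e1, Cyp2f2 and Cyp3a13) and 0 higher, against 8.25% and 7.55% of all genes. DESeq2 called no member and 1.5% of the 8687 genes it gave an adjusted p. With no filter on low counts edgeR called Cyp2a5 (1.61% of all genes). LKO lay wholly below WT for Cyp2d26, Cyp2e1 and Cyp4b1, 3 of 30 against 6.58% of all genes, and wholly above for the vitamin D 25-hydroxylase Cyp2r1, 1 of 30 against 6.34%. For Cyp4b1, with 289 reads over the 13 samples, the gap was 2.468 CPM in LKO against 2.473 in WT. The log2 fold change was below 0 for 24 of 30 members (52% of all genes), with a median of -0.21, but for 17 with total count scaling and for 19 without WT tunicamycin 3.

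Cyp2f2 had the smallest p, with 213, 180, 176 and 219 CPM in LKO and 209, 274 and 318 in WT, groups that overlapped (log2 fold change -0.44 ± 0.15, SE; edgeR adjusted p = 0.168). Cyp2e1 was at 801, 1048, 492 and 1089 CPM in LKO and at 1158, 1130 and 1823 in WT, without overlap (log2 fold change -0.68 ± 0.26, SE; edgeR adjusted p = 0.213). Cyp2d26, at chr15:82790101-82794294, was at 114, 114, 110 and 116 CPM in LKO and at 129, 143 and 142 in WT (log2 fold change -0.28 ± 0.11, SE; edgeR adjusted p = 0.217). It is the member with the smallest SD within groups, and all 4 LKO samples lay below all 3 WT samples.

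In this comparison a single WT sample weighed much. For Cyp2a5 the difference was -1.21 ± 0.45 on the log2 scale (SE, adjusted p = 0.211 in edgeR) with all samples and -0.13 ± 0.35 without WT tunicamycin 3 (adjusted p = 0.916). That of Cyp2e1 went from -0.68 to -0.42 ± 0.25 (SE; edgeR adjusted p = 0.508), and that of Cyp2f2 from -0.44 to -0.30 ± 0.14 (SE; edgeR adjusted p = 0.382). For Cyp3a13 it went the other way, from -0.47 ± 0.17 to -0.68 ± 0.14 (SE), and without that library it was the one member edgeR called (adjusted p = 0.0326, where 0.644% of all genes were called). Cyp3a13 was at 65.98, 70.3, 70.2 and 50.0 CPM in LKO tunicamycin, beside 94.9, 110 and 61.3 in WT tunicamycin.

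Whether the response to tunicamycin differed between the genotypes was tested as an interaction. No member passed an adjusted p under 0.05 in edgeR, and none of all 9644 genes did (0%). At an unadjusted p under 0.05 there were 0 members in either direction, against 2.79% and 2.13% of all genes, and DESeq2 called no gene at all (0%). The value was below 0 for 18 of 30 members, against 53.4% of all genes, with a median of -0.097. It was below 0 for 14 of 30 both with total count scaling and without WT tunicamycin 3, and the median turned to 0.053 and 0.15. The smallest adjusted p was 0.981, for Cyp2a5 (-1.19 ± 0.66 on the log2 scale, SE). Without WT tunicamycin 3 that value was -0.11 ± 0.47 (SE), so most of the interaction value of Cyp2a5 rested on this library. The interaction for Cyp3a13 was -0.41 ± 0.25 (SE; edgeR adjusted p = 0.982) with all samples and -0.62 ± 0.19 (edgeR adjusted p = 0.462) without WT tunicamycin 3.

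**Figure D4:**
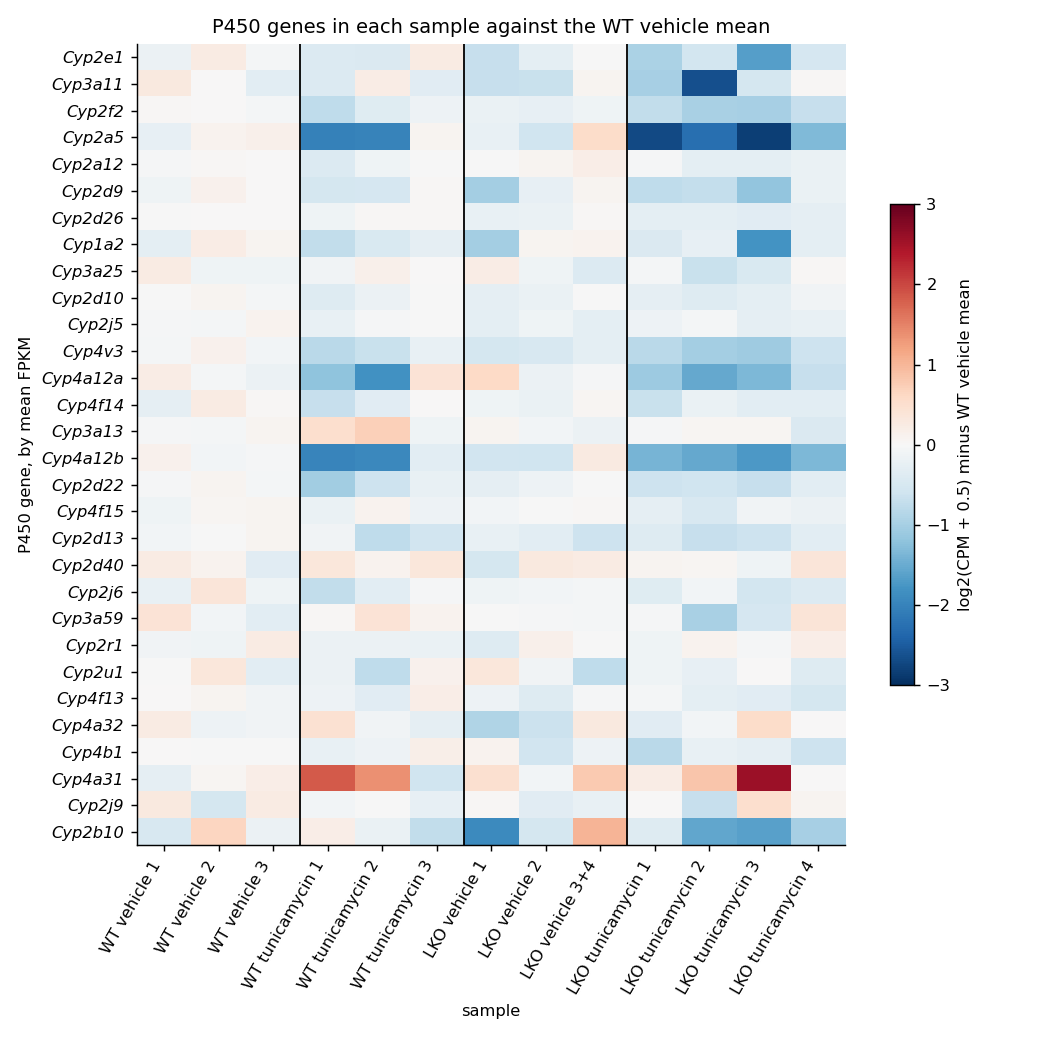
Log2(CPM + 0.5) of the 30 tested P450 genes in each sample, as the difference from the WT vehicle mean, with genes ordered by mean FPKM and the colour limited to 3 in either direction. Blue is lower and red higher; the columns of WT tunicamycin 1 and 2 and of LKO tunicamycin are blue for Cyp2a5, Cyp4a12a and Cyp4a12b, and that of WT tunicamycin 3 is not for Cyp2a5 and Cyp4a12a.

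By known control, the members fell into groups as follows. The 3 male-biased members, Cyp2d9, Cyp4a12a and Cyp4a12b, had median log2 fold changes of -0.57 with tunicamycin in WT and -1.31 in LKO, with 0 of 3 called by edgeR in either. In both genotypes this median is the value of Cyp4a12a, the near copy of Cyp4a12b. The log2 fold change of Cyp2d9 was smaller, -0.32 ± 0.26 in WT and -0.35 ± 0.24 in LKO (SE). Cyp2d9 alone was at 167, 200 and 185 CPM in WT vehicle, 127, 129 and 188 in WT tunicamycin, 89.7, 155 and 194 in LKO vehicle, and 108, 112, 80.1 and 160 in LKO tunicamycin. Its groups overlapped in each comparison. The 4 tested targets of CAR or PXR, Cyp2b10, Cyp3a11, Cyp3a13 and Cyp3a25, had medians of -0.076 and -0.27, with 2 and 4 of 4 below 0 and 0 called. Of the 3 targets of the aryl hydrocarbon receptor only Cyp1a2 was tested, at -0.50 ± 0.33 in WT and -0.38 ± 0.30 in LKO (SE).

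Among 26 tested genes for receptors and factors that control P450 genes, 3 were called by edgeR, all lower in LKO than WT after tunicamycin, where 0.861% of all genes were called, and 0 were called in the other comparisons. Hnf4a, a central hepatocyte factor at chr2:163506808-163572910, was at 183, 173 and 164 CPM in WT tunicamycin and at 121, 119, 114 and 122 in LKO tunicamycin (log2 fold change -0.54 ± 0.12, SE; edgeR adjusted p = 0.0405). With vehicle it was at 153, 156 and 152 CPM in WT and at 123, 134 and 161 in LKO. Foxa3, a forkhead factor of liver genes at chr7:19013284-19023538, was at 18.1, 15.4 and 15.7 CPM in WT tunicamycin and at 8.25, 8.96, 11.1 and 8.78 in LKO tunicamycin (log2 fold change -0.82 ± 0.14, SE; edgeR adjusted p = 0.0160). With vehicle it was at 10.6, 10.9 and 10.2 CPM in WT and at 10.05, 7.29 and 8.945 in LKO. Its log2 fold change with tunicamycin was 0.64 ± 0.15 in WT (SE; edgeR adjusted p = 0.0722) and 0.099 ± 0.14 in LKO (SE; edgeR adjusted p = 0.836). For both genes the treated genotypes were well apart.

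Nr0b2, the bile acid responsive repressor SHP at chr4:133553376-133556536, was at 5.08, 3.40 and 2.77 CPM in WT tunicamycin and at 1.995, 1.17, 1.32 and 0.867 in LKO tunicamycin (log2 fold change -1.51 ± 0.32, SE; edgeR adjusted p = 0.0405). With vehicle it was at 2.75, 4.478 and 2.185 CPM in WT and at 2.602, 2.114 and 2.606 in LKO. The calls of Hnf4a, Foxa3 and Nr0b2 depended on single libraries and settings. Of 26 alternatives, 16 lost the call of Hnf4a, 10 that of Nr0b2 and 6 that of Foxa3. Without WT tunicamycin 1 all 3 were lost, with edgeR adjusted p of 0.171 for Hnf4a, 0.109 for Foxa3 and 0.199 for Nr0b2. Nr0b2 was also lost without WT vehicle 1 or LKO tunicamycin 2, 3 or 4 (adjusted p 0.0614 to 0.109). Hnf4a was lost too without any WT vehicle sample, WT tunicamycin 2 or any LKO tunicamycin sample (edgeR adjusted p 0.0514 to 0.114). Foxa3 was the steadiest, and its call was kept in the other 12 leave-one-out fits. With limma on log2(FPKM + 1), a filter at a mean FPKM of 1 and the 13 samples, none of the 3 was called (adjusted p 0.0585 to 0.123), and with total count scaling Hnf4a was not (edgeR adjusted p = 0.115).

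The ligand-sensing receptors gave no call. Nr1i3 was at 20.3, 16.0 and 18.9 CPM in WT vehicle and at 10.6, 10.5 and 12.5 in WT tunicamycin, without overlap (log2 fold change -0.72 ± 0.21, SE; edgeR adjusted p = 0.126). Ppara was at 123, 103 and 127 CPM in WT vehicle and at 72.8, 85.8 and 87.1 in WT tunicamycin, again without overlap (log2 fold change -0.52 ± 0.17, SE; edgeR adjusted p = 0.162). In LKO the values for Nr1i3 and Ppara were -0.21 ± 0.19 and -0.37 ± 0.16 (SE). For Ahr and Nr1i2 the log2 fold changes of the 4 comparisons lay between -0.25 and 0.16.

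Of the 6 electron partners, 0 were called by edgeR in any comparison, while 6 of 6 had a log2 fold change below 0 with tunicamycin in each genotype (medians -0.25 in WT and -0.22 in LKO). Por, the reductase that all of these enzymes need, was at 102, 70.9 and 129 CPM in LKO vehicle and at 62.5, 84.2, 59.6 and 77.6 in LKO tunicamycin, with overlap (log2 fold change -0.51 ± 0.18, SE; edgeR adjusted p = 0.290). Of the 12 genes of heme synthesis and breakdown, 0 were called in any comparison. Alas1, the rate-limiting enzyme of heme synthesis in liver, was at 97.2, 155 and 86.7 CPM in WT vehicle and at 84.8, 62.3 and 201 in WT tunicamycin, with WT tunicamycin 3 as the highest of all samples.

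Markers of liver cell types were set beside these values. All 8 hepatocyte markers, Alb, Apoa1 and Ttr among them, were tested, and only Hnf4a was called. Over the samples Alb was at 9835 to 19070 CPM, while Asgr1 was at 31.0 to 42.2 CPM. The 8 markers summed to 16710 to 19100 CPM in WT vehicle, 13870 to 23620 in WT tunicamycin, 14430 to 22730 in LKO vehicle and 13550 to 18750 in LKO tunicamycin, and most of each sum was Alb. Their log2 fold change with tunicamycin was below 0 for 5 of 8 in WT (median -0.014) and 7 of 8 in LKO (median -0.23), and it was below 0 for 6 of 8 in LKO against WT with vehicle (median -0.13) and 7 of 8 after tunicamycin (median -0.23). The 9 markers of Kupffer cells and macrophages had log2 fold changes above 0 with tunicamycin for 9 of 9 in both genotypes (medians 0.30 in WT and 0.55 in LKO, 0 called). Their summed level was 51.4 to 64.5 CPM in WT vehicle, 60.9 to 78.3 in WT tunicamycin, 41.3 to 68.1 in LKO vehicle and 65.3 to 125 in LKO tunicamycin. The 4 tested leukocyte markers of 8 had medians of 1.15 with tunicamycin in WT (1 below 0) and 1.002 in LKO (0 below 0), with 0 called. The 4 were far apart. S100a8 and S100a9, at 4.81 CPM at most in any sample, had 3.45 and 2.09 in WT and 1.57 and 2.58 in LKO. Ptprc had 0.21 in WT and 0.16 in LKO, and Lyz2 had -0.47 and 0.44. All 8 summed to 15.4 to 17.2 CPM in WT vehicle, 12.2 to 21.4 in WT tunicamycin, 14.4 to 20.1 in LKO vehicle and 16.2 to 31.4 in LKO tunicamycin, with Cd79a at 0 in WT vehicle, Cd3e at 0 in LKO vehicle, and Cd3e, Cd79a and Nkg7 at 0 in WT tunicamycin. Stellate cell markers were above 0 for 9 of 9 tested in LKO against WT with vehicle (summed 137 to 186 CPM against 81.5 to 129, 0 called). The 8 markers of sinusoidal endothelium lay on both sides of 0 with tunicamycin, with 4 of 8 below 0 in each genotype and 0 called. Bile duct markers summed to 8.74 to 11.7 CPM in WT vehicle and 8.48 to 42.5 in WT tunicamycin. In LKO they summed to 17.5 to 55.6 CPM with vehicle and 35.8 to 111 with tunicamycin. Only Spp1 and Sox9, 2 of these 6 markers, were tested, with 0 called. The highest LKO sums were mostly Spp1, at 50.9 CPM in LKO vehicle 2 and 105 in LKO tunicamycin 1. Sox9 was at 1.79 to 6.46 CPM over all samples. Krt7, Krt19, Epcam and Cldn7 were below that range in every sample, and Cldn7 was at 0 in WT tunicamycin. These sums thus follow Spp1 more than the list as a whole. The part of the cell types in the P450 values was not tested.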

How the data were processed

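RNA-seq was made from whole liver, and the authors' deposited files hold raw read counts per gene for each library, as STAR writes them, and a table of FPKM values; Trimmomatic, STAR, Cufflinks and the build mm10 are named per the submitters' processing notes, without versions. The deposited counts of the strand column that holds nearly all gene reads were used, and LKO vehicle 3 and 4 were summed. The authors' FPKM table served for levels and as an alternative; the column of LKO vehicle 2 summed to 101066 FPKM, against 158366 to 171081 in the others. Whether replicates were separate animals is taken from the labels. The members and gene lists were chosen with earlier results of these data known.

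Counts of 9644 genes passing edgeR's filterByExpr were fitted in edgeR 4.0.16 (R 4.3.3) with TMM scaling, one mean per group and the quasi-likelihood test, with Benjamini-Hochberg adjustment over all genes tested. The coefficient of variation between samples was 0.155. The script was tested on simulated counts with known changes. Alternatives used DESeq2 1.42.0, limma 3.58.1 on log2(FPKM + 1) and log2(FPKM + 0.1), other scalings and filters, the replicate block, summed near copies, and each sample left out; the summing of near copies and an FPKM fit that drops LKO vehicle 2 were chosen after seeing the data. Named genes were the 3 members of smallest p in each comparison, the 10 with the highest mean FPKM, members always followed (Cyp1a1, Cyp1a2, Cyp2e1, Cyp2b10, Cyp3a11, Cyp4a12a), list genes that were called, and Por, Alas1, Nr1i3, Nr1i2, Ahr, Ppara, Hnf4a and Rbbp5; any other gene was named after its values were seen. Unique 100-base windows were counted over GENCODE M21 transcripts. A search of the upstream windows of members for transcription factor motifs was made and is not reported, because no binding data bear on it. All sample columns of the deposited tables were used.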

Additional observations from a re-analysis of the deposited data

Results flagged for a closer look

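One member had a sample far from the rest of its group. Cyp4a31, a fatty acid omega-hydroxylase next to Cyp4a32, was at 8.14 CPM in LKO tunicamycin 3, while the other 3 samples of the group were at 1.20, 2.08 and 0.976 CPM. The gap to the nearest sample, set against the range of the group, was above Dixon's critical value for 4 samples. The 30 tested members were checked in this group alone, since the other groups have 3 samples, and 1 was found, where chance gives about 1 in 20. Part of the Cyp4a31 transcript is shared with other genes, with 91.8% of its 100-base windows found in no other gene.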

How the results depend on the processing

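The count of P450 genes called was 0 in all 5 comparisons with edgeR and moved where alternatives gave calls. For tunicamycin in WT it was 3 with total count scaling, 2 with no filter on low counts, 3 with DESeq2 and 0 to 7 over the leave-one-out fits. For tunicamycin in LKO it was 4 with no filter, 2 with DESeq2 and 0 to 4 over the leave-one-out fits. For LKO against WT after tunicamycin it was 1 with no filter (Cyp2a5) and 0 to 1 over the leave-one-out fits, and for the other 2 comparisons it was 0 under every alternative run. All leave-one-out fits with calls were those without WT tunicamycin 3. The replicate block raised the count of members for tunicamycin in LKO to 1 (Cyp2a5, log2 fold change -2.46, edgeR adjusted p = 0.0436, where 0.0518% of all genes were called) and left the others at 0. Correlations of deviations between same-numbered samples of different groups ran from -0.118 to 0.141 over 18 pairs, with a median of 0.0225 and 3 over 0.1. Over 45 pairs with different numbers they ran from -0.221 to 0.202, with a median of -0.0117 and 5 over 0.1. These values show no clear pairing by number, but with 3 or 4 samples per group they cannot exclude one.

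In all, 140 fold changes (28 named genes with a test in 5 comparisons) were followed through 26 alternatives. Of 3578 values, 3328 kept direction and call, 34 gained a call, 32 lost one and 184, of 53 fold changes, had the opposite sign. None of these 53 was called in either direction. WT tunicamycin 3 changed more signs than any other left-out sample, 15. The cause of each change was not tested. Total count scaling gave, for LKO against WT after tunicamycin 0.049 for Cyp1a2, 0.13 for Cyp2a12, 0.069 for Cyp2d10, 0.093 for Cyp2d13, 0.065 for Cyp2j5, 0.13 for Alas1 and 0.14 for Nr1i3. It gave, for the interaction 0.037 for Cyp2a12, 0.12 for Cyp2d9, 0.070 for Cyp4a12b and 0.10 for Rbbp5. Likewise it gave, for tunicamycin in WT -0.19 for Cyp3a25, -0.13 for Alas1, -0.017 for Hnf4a, -0.048 for Nr1i2 and -0.13 for Rbbp5. There it gave, for tunicamycin in LKO -0.031 for Rbbp5. Limma on log2(FPKM + 1) with a mean FPKM of at least 1 gave, for LKO against WT after tunicamycin 0.15 for Cyp2a12, 0.075 for Cyp2d10, 0.081 for Cyp2d13, 0.10 for Cyp2j5, 0.24 for Alas1 and 0.22 for Nr1i3. Again it gave, for the interaction 0.10 for Cyp2d9 and 0.087 for Cyp4a12b. It gave, for LKO against WT with vehicle 0.032 for Cyp3a13, 0.086 for Alas1 and 0.026 for Por. Likewise it gave, for tunicamycin in WT -0.18 for Cyp3a25 and -0.10 for Alas1. Limma on log2(FPKM + 0.1) gave, for LKO against WT after tunicamycin 0.16 for Cyp2a12, 0.078 for Cyp2d10, 0.10 for Cyp2d13, 0.11 for Cyp2j5, 0.0070 for Cyp4a12b, 0.26 for Alas1 and 0.31 for Nr1i3. There it gave, for the interaction 0.11 for Cyp2d9 and 0.14 for Cyp4a12b. Again it gave, for LKO against WT with vehicle 0.035 for Cyp3a13, 0.093 for Alas1 and 0.025 for Por. It gave, for tunicamycin in WT -0.18 for Cyp3a25 and -0.12 for Alas1. Limma on log2(FPKM + 1) without that filter gave, for LKO against WT after tunicamycin 0.15 for Cyp2a12, 0.075 for Cyp2d10, 0.081 for Cyp2d13, 0.10 for Cyp2j5, 0.24 for Alas1 and 0.22 for Nr1i3. Likewise it gave, for LKO against WT with vehicle -0.12 for Cyp2b10, 0.032 for Cyp3a13, 0.086 for Alas1 and 0.026 for Por. There it gave, for the interaction 0.10 for Cyp2d9, 0.087 for Cyp4a12b and 0.047 for Rbbp5. Again it gave, for tunicamycin in WT -0.18 for Cyp3a25, -0.10 for Alas1 and -0.043 for Rbbp5. Limma on log2(FPKM + 1) without the LKO vehicle 2 column gave, for LKO against WT after tunicamycin 0.15 for Cyp2a12, 0.075 for Cyp2d10, 0.081 for Cyp2d13, 0.10 for Cyp2j5, 0.24 for Alas1 and 0.22 for Nr1i3. It gave, for LKO against WT with vehicle 0.16 for Cyp2a5, 0.052 for Cyp3a13, 0.048 for Cyp4a12b, 0.077 for Alas1, 0.25 for Por and 0.0044 for Ppara. Likewise it gave, for the interaction 0.16 for Cyp2d9. There it gave, for tunicamycin in WT -0.18 for Cyp3a25 and -0.10 for Alas1. Again it gave, for tunicamycin in LKO -0.020 for Foxa3. The 14 libraries kept apart gave, for LKO against WT with vehicle 0.14 for Cyp2a5, 0.0032 for Ahr and 0.047 for Por. It gave, for tunicamycin in LKO 0.014 for Cyp3a13. DESeq2 gave, for LKO against WT with vehicle -0.096 for Cyp2b10. Likewise it gave, for LKO against WT after tunicamycin -0.00035 for Ppara. The replicate block gave, for LKO against WT with vehicle -0.093 for Cyp2b10. There it gave, for LKO against WT after tunicamycin -0.032 for Cyp2d22 and -0.11 for Ppara. Again it gave, for tunicamycin in LKO 0.099 for Cyp3a13 and -0.14 for Alas1. It gave, for the interaction 0.016 for Cyp4a12b, -0.078 for Alas1 and 0.11 for Rbbp5. Likewise it gave, for tunicamycin in WT -0.058 for Alas1. No filter on low counts gave, for tunicamycin in WT -0.012 for Cyp3a25. Near copies summed gave, for LKO against WT with vehicle 0.052 for Cyp4a12b. Reads counted without regard to strand gave, for LKO against WT after tunicamycin 0.055 for Nr1i3.

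The leave-one-out ranges for LKO against WT with vehicle were -0.39 to 0.069 for Cyp1a2, -0.41 to 0.20 for Cyp2a5, -1.59 to 0.62 for Cyp2b10, -0.28 to 0.048 for Cyp3a25, -0.12 to 0.30 for Cyp4a12a and -0.31 to 0.15 for Ahr. Further ranges for LKO against WT with vehicle were -0.26 to 0.20 for Alas1, -0.051 to 0.23 for Nr1i2 and -0.27 to 0.15 for Por. The leave-one-out ranges for LKO against WT after tunicamycin were -0.22 to 0.16 for Cyp1a2, -0.13 to 0.059 for Cyp2a12, -0.18 to 0.0090 for Cyp2d10, -0.18 to 0.17 for Cyp2d13, -0.15 to 0.27 for Cyp2d22 and -0.96 to 0.35 for Cyp4a12a. Further ranges for LKO against WT after tunicamycin were -0.62 to 0.51 for Cyp4a12b, -0.078 to 0.40 for Ahr, -0.31 to 0.64 for Alas1, -0.12 to 0.14 for Nr1i3 and -0.12 to 0.096 for Ppara. The leave-one-out ranges for the interaction were -0.16 to 0.37 for Cyp1a2, -2.36 to 0.042 for Cyp2b10, -0.024 to 0.17 for Cyp2d10, -0.011 to 0.41 for Cyp2d22, -0.27 to 0.22 for Cyp2d9 and -0.61 to 0.11 for Cyp3a11. Further ranges for the interaction were -0.33 to 0.011 for Cyp3a25, -1.11 to 0.20 for Cyp4a12a, -0.39 to 0.74 for Cyp4a12b, -0.031 to 0.49 for Ahr, -0.22 to 0.73 for Alas1 and -0.27 to 0.24 for Rbbp5. The leave-one-out ranges for tunicamycin in WT were -0.75 to 0.19 for Cyp2b10, -0.043 to 0.033 for Cyp2d26, -0.073 to 0.13 for Cyp3a25, -0.33 to 0.19 for Ahr, -0.62 to 0.34 for Alas1 and -0.035 to 0.59 for Nr0b2. Further ranges for tunicamycin in WT were -0.19 to 0.044 for Por and -0.12 to 0.22 for Rbbp5. The leave-one-out ranges for tunicamycin in LKO were -0.071 to 0.095 for Cyp3a13, -0.32 to 0.0030 for Cyp3a25, -0.016 to 0.38 for Ahr, -0.12 to 0.22 for Alas1, -0.022 to 0.19 for Foxa3 and -0.22 to 0.27 for Rbbp5.

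Depth limits the low members most: 36 of 66 could not be tested, and Cyp2b10 and Cyp4a31 rest on 136 and 252 reads over 13 samples. Groups of 3 or 4 mice and 9 residual degrees of freedom leave modest differences below the threshold, and a p that misses it does not show that values were alike. The count of members below 0 after tunicamycin between genotypes depended on the scaling and on WT tunicamycin 3.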

Other observations

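Some members with too few reads to test had higher deposited FPKM values than their read counts would place them at, and 4 of these had a mean of at least 1 FPKM. Cyp2a4 had a mean of 2.64 FPKM on 61 reads over the 13 samples, Cyp3a44 had 1.57 FPKM on 19 reads, and Cyp2d11 had 1.22 FPKM and Cyp3a41a 1.19 FPKM on 8 reads each. By comparison, Cyp2r1 had 2.005 FPKM on 740 reads. Lower FPKM values on even fewer reads were those of Cyp3a41b, 0.304 on 0 reads, and Cyp2d34, 0.239 on 1 read. Of the 100-base windows of the transcripts, 88.8% were unique for Cyp2a4, 87.8% for Cyp2d11, 94.6% for Cyp3a44, 9.18% for Cyp3a41a, 11.8% for Cyp3a41b and 100% for Cyp2d34. Whether shared sequence accounts for the gap was not tested.

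Several untested members had reads in nearly every sample. Cyp4f16 had a mean of 0.228 ± 0.181 CPM in WT vehicle, 0.305 ± 0.168 in WT tunicamycin, 0.436 ± 0.282 in LKO vehicle (SD, n = 3 each) and 0.762 ± 0.378 in LKO tunicamycin (SD, n = 4). Cyp1b1 was at 0.405 ± 0.249 CPM in WT vehicle and at 0.783 ± 0.767 in LKO vehicle (SD, n = 3 each). Cyp2b9 was at 0.612 ± 0.715 CPM in WT vehicle and at 0.200 ± 0.259 in LKO tunicamycin (SD, n = 3 and 4). These values rest on few reads, 57 for Cyp4f16, 60 for Cyp1b1 and 59 for Cyp2b9 over the 13 samples, and were not tested. For Cyp4f16 all 4 LKO tunicamycin samples, at 0.532 to 1.32 CPM, were above all 6 WT samples, at 0.120 to 0.486 CPM, and LKO vehicle overlapped with both. The gap from 0.486 to 0.532 CPM is small at such counts. The gene was named after its values were seen, and the share of all genes that lay apart in this way was not counted.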
